A study of Mus musculus with 4 samples.

Results

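Skeletogenic stromal cells that carry Aspn, Omd and Cthrc1 were examined in single-cell RNA libraries made from CD-1 mouse olfactory epithelium. A cell was taken as a member when it had at least 500 genes, at most 10% mitochondrial counts, at least 10 unique molecular identifiers (UMIs, counts of single captured RNA molecules) of the collagens Col1a1, Col1a2 and Col3a1 together, under 10 UMIs of Acta2 and at most 2 of Omp, and more UMIs of Aspn, Omd and Cthrc1 than of Apod, Inmt and Cxcl12. Of 9110 cells that passed the limits on genes and mitochondrial counts, 275 were members, with 46 in the P0 library, 178 in the P3 library, 49 in the P7 library and 2 in the P21 library. Each age, P0, P3, P7 or P21 (days after birth), was represented by 1 library, and the labels name no genotype, sex or treatment that sets the ages apart. Cells were released with papain and captured with the 10x Genomics 3′ kit, version 2, and the libraries are titled as olfactory sensory neurons. The labels speak of a sorted sample without naming the gate, and they do not give the number of mice behind a library.

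Asporin (Aspn) and osteomodulin (Omd) are small leucine-rich proteoglycans that bind collagen fibrils, and Cthrc1 is a secreted protein of collagen-rich and remodelling tissue. The turbinates and the bony and cartilaginous walls of the nose lie directly under the olfactory mucosa, and their bone grows by the work of osteoblasts, which mature through a series of states: Runx2 and Sp7 are the transcription factors that commit a mesenchymal cell to the osteoblast lineage, Alpl is the phosphatase that prepares matrix for mineral, and Ibsp, Spp1 and Bglap are matrix proteins of later osteoblasts. Cartilage cells are directed by Sox9 and lay down aggrecan (Acan) and the collagens Col2a1 and Col9a2. H19 is a long noncoding RNA of the imprinted Igf2 region that is abundant in fetal mesoderm and wanes after birth.

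Several genes that matter for these cells lie near each other in the genome. Positions were looked up for chosen genes only, so other genes may lie between those named. In the GENCODE vM21 annotation of GRCm38, Ecm2 (chr13:49504810-49532789), Aspn (chr13:49544443-49567565), Omd (chr13:49582462-49592822) and Ogn (chr13:49608046-49624501) follow each other on the plus strand, and all code for leucine-rich proteoglycans or a relative. Dcn (chr10:97479609-97518143), Lum (chr10:97565128-97572703), Kera (chr10:97606879-97613692) and Epyc (chr10:97644068-97682454) form another such row on the plus strand. Ibsp (chr5:104299171-104311469) and Spp1 (chr5:104435118-104441050) lie in the same region on the plus strand. H19 (chr7:142575529-142578143, minus strand, annotated as a lincRNA) lies beside Igf2 (chr7:142650766-142666816, minus strand). Cthrc1 lies at chr15:39076932-39087121 on the plus strand.

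Sequences are shown for a few picked genes, not all of which were called from P0 to P7. H19 hosts miR-675, and its mature arms are given first, with the seed (bases 2 to 8) in capitals; libraries of polyadenylated RNA do not measure these arms, so the H19 values below are those of the host RNA. Then follow the 250 bases upstream of the start of the bone genes Bglap, Spp1 and Mmp13 (RefSeq, GRCm38.p6), written 5′ to 3′ on the strand of the gene, with capitals on the core word of RUNX factors, TGTGGT, or its reverse complement ACCACA.
mmu-miR-675-5p: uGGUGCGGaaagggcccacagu
mmu-miR-675-3p: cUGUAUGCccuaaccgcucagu
Bglap: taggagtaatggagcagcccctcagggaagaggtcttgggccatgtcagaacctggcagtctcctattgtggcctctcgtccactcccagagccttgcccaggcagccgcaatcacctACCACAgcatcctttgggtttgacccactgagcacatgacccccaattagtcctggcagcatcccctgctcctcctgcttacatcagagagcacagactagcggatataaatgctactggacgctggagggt
Spp1: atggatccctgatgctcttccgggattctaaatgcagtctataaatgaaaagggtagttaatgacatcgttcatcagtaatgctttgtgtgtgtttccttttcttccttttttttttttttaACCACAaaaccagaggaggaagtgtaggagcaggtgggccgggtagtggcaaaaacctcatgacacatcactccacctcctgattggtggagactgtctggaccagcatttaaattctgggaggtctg
Mmp13: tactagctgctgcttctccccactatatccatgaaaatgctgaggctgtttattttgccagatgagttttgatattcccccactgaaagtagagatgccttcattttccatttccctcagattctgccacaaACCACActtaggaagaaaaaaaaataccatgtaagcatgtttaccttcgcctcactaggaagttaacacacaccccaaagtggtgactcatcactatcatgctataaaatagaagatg

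The miR-675 arms lie at chr7:142577112-142577133 (5p) and chr7:142577078-142577099 (3p) on the minus strand, inside H19. The upstream windows are chr3:88384467-88384716 on the minus strand for Bglap, chr5:104434861-104435110 on the plus strand for Spp1 and chr9:7272264-7272513 on the plus strand for Mmp13. Spp1 has a second RefSeq start, whose upstream window, chr5:104435942-104436191, held neither form of the word. In the windows printed, the capital word begins 132 bases upstream of that start in Bglap, 128 in Spp1 and 118 in Mmp13. Either form of the word was found in 14.1% of 32851 such windows of all genes, or in 4303 of 27025 genes. Of the 22 genes of the osteoblast list, 15 matched the RefSeq table by symbol and 7 of these held the word in a window: Runx2, Bglap, Spp1, Dmp1, Mepe, Sgms2 and Mmp13. The bone genes printed above are all among these 7, whereas the windows of Alpl, Ibsp and Pth1r, among others, held neither form. A match describes the letters of the window and says nothing of binding.

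The gate found the cells at unequal shares of the 4 libraries. Members made up 1.71% of the passing cells in the P0 library (exact binomial 95% interval 1.25 to 2.27) and 5.53% in the P3 library (4.76 to 6.37). The P7 library had 2.75% (2.04 to 3.61) and the P21 library 0.141% (0.0171 to 0.510). Intervals here and below are those of counting alone. No difference between ages has a replicate or a test, because each age is 1 library, and age cannot be told apart from library. Collagen-positive stromal cells as a whole, 160, 504, 156 and 9 cells, were likewise most numerous at P3, and members were 28.8%, 35.3%, 31.4% and 22.2% of them. Beside them stood 69, 116, 42 and 6 cells with more Apod, Inmt and Cxcl12, called fibroblasts of the lamina propria below after those genes, and 39, 193, 61 and 1 cells with 10 or more Acta2 UMIs. The share that members took of members and fibroblasts together was 40.0% at P0 (31.0 to 49.6), 60.5% at P3 (54.7 to 66.2) and 53.8% at P7 (43.1 to 64.4), so the P0 and P3 intervals did not overlap. At P21 it was 25% of 8 cells. Sorting and dissociation set how many stromal cells enter such a library, and their part in these shares was not tested.

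**Figure D1:**
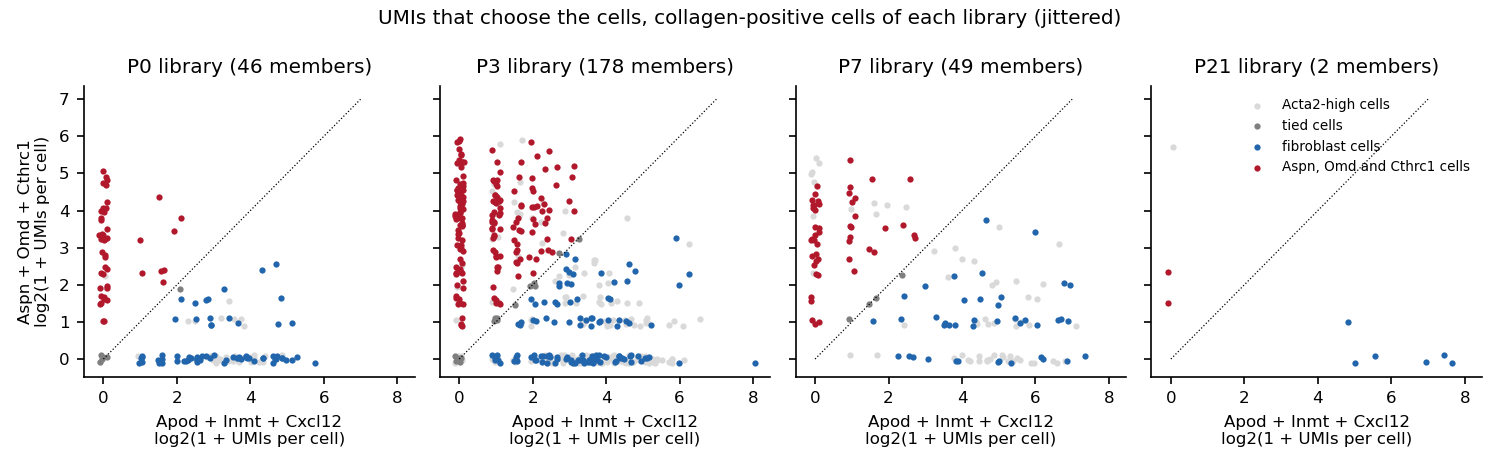
Each point is a collagen-positive cell, with the UMIs of Apod, Inmt and Cxcl12 on the x axis and of Aspn, Omd and Cthrc1 on the y axis, both as log2(1 + UMIs), for the P0, P3, P7 and P21 libraries, and a dotted line where the sums are equal. The 46, 178, 49 and 2 members (red) lie above the line and the fibroblasts (blue) below it, with 6, 17, 4 and 0 tied cells (dark grey) on it.

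The cells were chosen on these sums, so the sums are given as a description. Members had a median of 8 UMIs of Aspn, Omd and Cthrc1 at P0 (lowest 1, highest 31), 13.5 at P3 (1 to 61) and 9 at P7 (1 to 42), against medians of 0, 1 and 0 UMIs of Apod, Inmt and Cxcl12. Just inside the gate, 3 members at P0, 11 at P3 and 3 at P7 had a margin of 1 UMI, and just outside it 6, 12 and 1 fibroblasts missed by 1 UMI. At the collagen limit, 3, 7 and 1 members had 10 to 12 UMIs, and 2, 8 and 2 cells that otherwise met the rule had 7 to 9. At the Acta2 limit, 1, 13 and 1 members had 7 to 9 UMIs. Cells left out by Acta2 although Aspn, Omd and Cthrc1 led numbered 2, 29, 12 and 1 at P0, P3, P7 and P21. The P21 cell had 48 UMIs of the 3 genes, against 2 and 4 in the members. The shares of members depend on this limit, which no alternative changed. All 3 genes were found together in 20 of 46 members at P0, 104 of 178 at P3 and 30 of 49 at P7. Aspn had the most UMIs in 26, 66 and 18 cells, Cthrc1 in 14, 87 and 19, and Omd in 2, 12 and 7, with ties in the others.

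Summed over members, Aspn stood at 1514 CPM (UMIs of a gene scaled to a common library total) at P0, 1205 at P3 and 1090 at P7. Omd stood at 609, 680 and 681 CPM and Cthrc1 at 1043, 1465 and 1095 CPM. The P0 library was the highest for Aspn and the P3 library for Cthrc1. In the fibroblasts the same genes ranged from 47.7 to 259 CPM, and Apod ran the other way, with 79.7, 218 and 101 CPM in members and 3456, 2570 and 8874 CPM in fibroblasts.

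Depth differed between the libraries, as did the RNA of other cells found in members. Members of the P0, P3, P7 and P21 libraries held medians of 2817, 4625.5, 3832 and 1889 UMIs, and 138004, 850111, 198102 and 3778 UMIs in all, so the P3 library measured low genes best and P21 carried too few for any comparison. The deposited tables held 2703, 3220, 1787 and 1416 cells with 9207027, 17770838, 8653791 and 6861044 UMIs. Cells with 10 or more UMIs of Omp, the defining gene of mature olfactory neurons, numbered 339, 374, 367 and 831. The P0 and P3 tables shared 68 cell barcodes, while the other pairs shared 1 to 9; among members, 2 P0 barcodes and 4 P3 barcodes were of this kind. The 8 markers of mature olfactory neurons summed to 254, 146 and 146 CPM in members, against 18846, 17681 and 19940 CPM in cells with 10 or more Omp UMIs; 1, 0 and 1 of the 8 were at 0. Mural markers summed to 891, 655 and 813 CPM, leukocyte markers to 7.25, 31.8 and 10.1 CPM and osteoclast markers to 138, 34.1 and 121 CPM, and all 5 adipocyte markers were at 0 in each of the 3 libraries. The 6 glial markers summed to 239, 479 and 1434 CPM, and the P7 value rested largely on 1 cell, described with its genes below.

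For the comparison of ages a gene was counted as measured with at least 20 UMIs and 50 CPM in either library, and as called when its CPM differed at least 1.5-fold with a 95% interval of the ratio that left out 1. From P0 to P7, 158 of 1791 measured genes were called higher (8.82%) and 173 lower (9.66%). From P0 to P3, 160 of 3678 were higher (4.35%) and 217 lower (5.9%), and from P3 to P7, 324 of 3728 were higher (8.69%) and 232 lower (6.22%). These comparisons share libraries and are not independent of each other. When libraries were scaled by the median ratio of genes in place of the total, P0 shifted against the other ages: the median gene lay at -0.19 on the log2 scale in P7 over P0 and at -0.14 in P3 over P0, and the calls became 273 higher and 81 lower for P7 over P0 and 275 higher and 119 lower for P3 over P0. Directions near 1.5-fold are therefore to be read against that shift. Without the cells whose barcodes occur in another library, 160 genes were called higher and 170 lower from P0 to P7, and the osteoblast list below kept 6 higher of 9 measured.

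Osteoblast RNA was found in the cells, and the osteoblast list summed to 1920, 1087 and 3352 CPM at P0, P3 and P7. Of its 22 genes, 9 were measured from P0 to P7, and 6 of these were called higher (background 8.82%) and 0 lower. The median log2 change was 0.80 beside 0.00 over all measured genes. The 6 were Runx2, Sp7, Alpl, Cdh11, Spp1 and Mmp13, so the count and the median cover later genes as well as early ones. From P3 to P7, 7 of 10 were called higher (background 8.69%) and 0 lower, with a median of 1.03. From P0 to P3 none of 8 was higher and 4 were lower (background 5.9%), with a median of -0.46. With each cell thinned to 2000 UMIs before the gate, 2 of 7 measured genes were called higher from P0 to P7. The libraries also differed in which members they held. When the 275 members were clustered, cluster 3, in which the osteoblast list summed to 4834 CPM against 778 to 1520 CPM in the other 4 clusters, held 26.1% of the P0 members, 8.43% of P3 and 42.9% of P7. Cluster 0 held 19.6%, 39.3% and 10.2%, cluster 1 17.4%, 21.9% and 34.7%, and cluster 2 28.3%, 19.7% and 6.12%. A difference of level within cells and a difference in which cells were captured cannot be told apart in the summed values.

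Runx2 (chr17:44495987-44814797, minus strand), the master factor of the lineage, stood at 116 CPM at P0 (Poisson 95% interval 66.3 to 188, 16 UMIs), 120 CPM at P3 (97.8 to 146, 102 UMIs) and 273 CPM at P7 (205 to 356, 54 UMIs). The intervals of P0 and P3 overlapped and P7 lay above both, with a P7 to P0 ratio of 2.35 (1.33 to 4.40) and a P7 to P3 ratio of 2.27 (1.60 to 3.19). Sp7 (chr15:102356606-102367182, minus strand), which acts downstream of Runx2, stood at 79.7, 92.9 and 187 CPM, with P7 again the highest, 2.34-fold over P0 (1.17 to 5.09) and 2.01-fold over P3 (1.32 to 3.01). Alpl (chr4:137741733-137796384, minus strand) stood at 341, 301 and 530 CPM, a P7 to P0 ratio of 1.56 (1.09 to 2.24) and a P7 to P3 ratio of 1.76 (1.39 to 2.22). Cdh11, the cadherin of osteoblasts and other mesenchyme, stood at 210, 295 and 374 CPM and was 1.78-fold higher at P7 than at P0 (1.14 to 2.83). Pth1r, the receptor of parathyroid hormone, was not called from P0 to P7 and was lower after P0, with 203 CPM at P0 against 116 CPM at both P3 and P7 and a P3 to P0 ratio of 0.57 (0.37 to 0.91).

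These genes were spread over many cells. At least 1 UMI of Runx2, Sp7 or Alpl was found in 31 of 46 members at P0, 136 of 178 at P3 and 42 of 49 at P7. After thinning to 2000 UMIs per cell, which left 32, 164 and 41 members, Runx2 was found in 15.6% (5.28 to 32.8), 20.1% (14.3 to 27.1) and 36.6% (22.1 to 53.1) of them, Sp7 in 15.6%, 18.3% and 29.3%, and Alpl in 43.8%, 42.7% and 51.2%. The unthinned shares for Runx2 were 21.7%, 37.1% and 59.2%. The order of the thinned shares followed the CPM for Runx2 and Sp7, but the intervals of neighbouring ages overlapped. Thinned fibroblasts held Sp7 in 0 of 31, 0 of 90 and 0 of 27 cells.

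**Figure D2:**
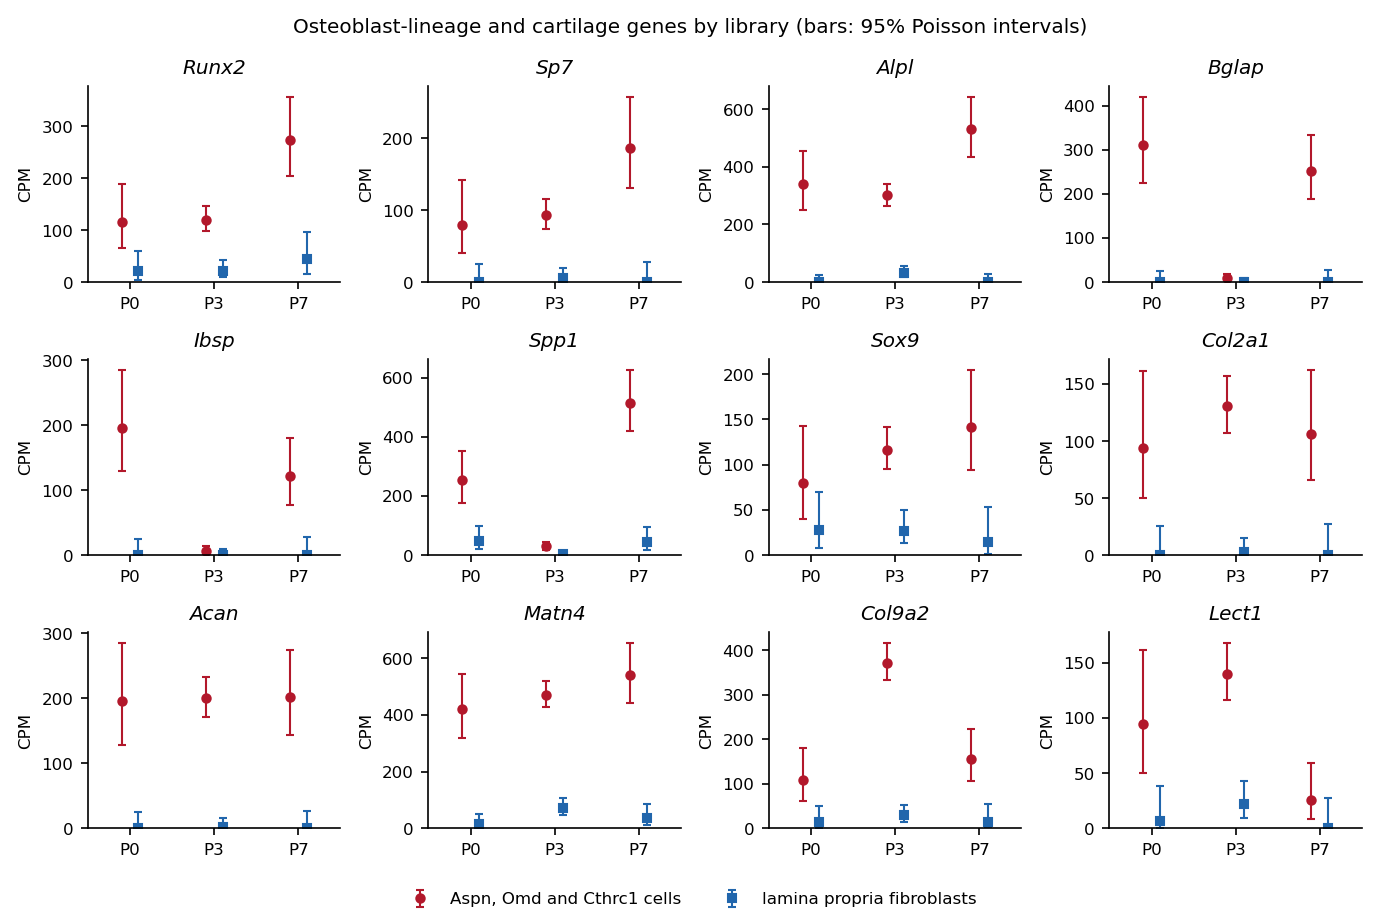
Points are CPM summed over the members (red circles) or the fibroblasts (blue squares) of the P0, P3 and P7 libraries, with Poisson 95% bars, in a panel for each of 12 osteoblast and cartilage genes. Runx2, Sp7 and Alpl are highest at P7, Bglap, Ibsp and Spp1 are lowest at P3, and Acan stays near 200 CPM in members at every age, at 196, 200 and 202.

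The late osteoblast genes came from few cells and were lowest at P3. Bglap (osteocalcin, chr3:88383501-88384464, minus strand) stood at 312 CPM at P0 (43 UMIs), 9.41 CPM at P3 (8 UMIs) and 252 CPM at P7 (50 UMIs), so the P3 library was 0.03 times P0 (0.01 to 0.07) and P7 was 26.8 times P3 (12.6 to 65.5). Bglap and Ibsp were, with Pth1r, the 3 measured genes of the list not called from P0 to P7, and all 3 had a lower CPM at P7 than at P0. At P0, 69.8% of those UMIs lay in 1 of 6 positive cells, whereas at P7 the largest cell held 16% and 16 cells were positive. Bglap2, a near-identical neighbour that the counting may not separate fully, stood at 21.7, 4.71 and 85.8 CPM. Ibsp, bone sialoprotein, stood at 196, 5.88 and 121 CPM, with 1 cell holding 55.6%, 100% and 41.7% of the UMIs. Spp1, osteopontin, stood at 254, 29.4 and 515 CPM, and 1 cell held 82.9%, 88.0% and 74.5%. The call for Spp1, 2.03-fold from P0 to P7 (1.37 to 3.07), turned to a log2 change of -2.52 without the cells that held 10 or more UMIs of the 3 genes.

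Cells rich in these RNAs were rare in each library. Any UMI of Bglap, Ibsp or Spp1 was found in 15 of 46 members at P0, 7 of 178 at P3 and 19 of 49 at P7, and 10 or more in 3, 1 and 4 cells. Without those cells, 4 osteoblast genes were called higher from P0 to P7 and 1 lower of 7 measured. The cells remaining had log2 changes of 1.04 for Runx2 and 0.69 for Alpl, beside 1.17 and 0.62 with all members. Genes of osteocytes, the cells buried in bone, were near or at 0: Dmp1 had no UMI in any member of the 3 libraries and Sost had 1 UMI, at P7. A count of 0 allows up to 21.7 CPM at P0 and 15.1 CPM at P7 with a floor of 3 counts.

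Mmp13 (chr9:7272514-7283331, plus strand), the collagenase of terminal osteoblasts and cartilage cells, had the widest age difference of the list. It stood at 36.2 CPM at P0 (5 UMIs in 2 cells), 18.8 CPM at P3 (16 UMIs in 6 cells) and 722 CPM at P7 (143 UMIs in 13 cells). P7 was 19.9 times P0 (8.34 to 62.3) and 38.4 times P3 (22.8 to 68.9), and 1 P7 cell held 51.7% of the UMIs. The log2 change from P0 to P7 was 3.98, and it ranged from 3.88 to 6.41 under the alternatives. Fibroblasts had no Mmp13 UMI in any of the 3 libraries, so members were at least 32.5-fold higher than fibroblasts at P7. Mmp13 was not confined to members, however. The collagen-positive cells left out by the Acta2 limit stood at 0 CPM at P0 and P3 and at 229 CPM at P7. In 12 of these P7 cells Aspn, Omd and Cthrc1 led, and their part in this Mmp13 was not tested.

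**Figure D3:**
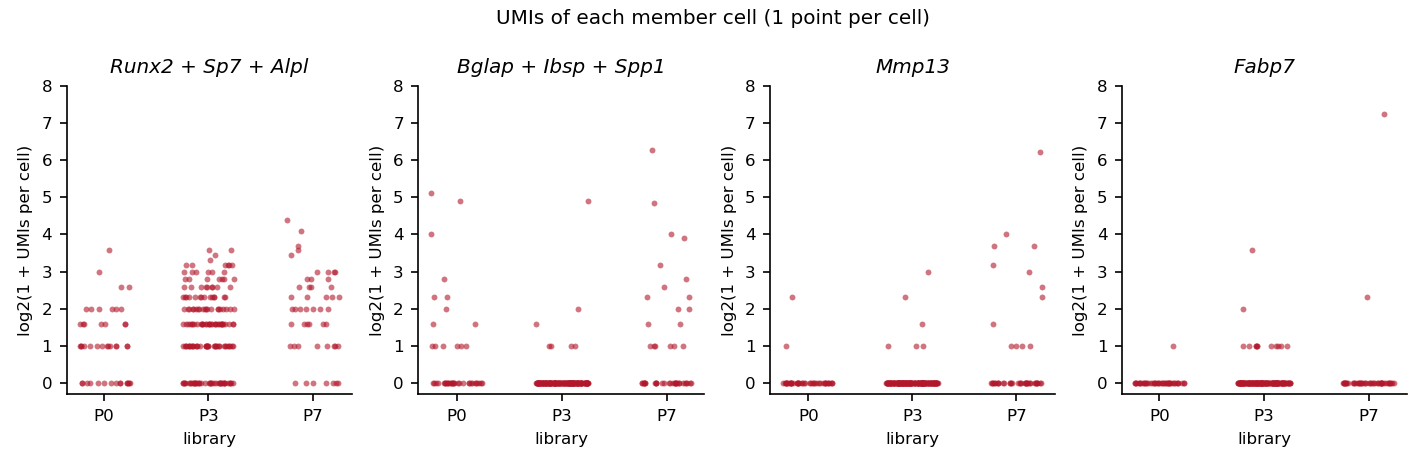
Each point is 1 member cell of the P0, P3 or P7 library, placed by log2(1 + UMIs) of Runx2 + Sp7 + Alpl, Bglap + Ibsp + Spp1, Mmp13 or Fabp7. The first sum is spread over most cells of each library, whereas the other 3 rest on few cells, with 1 P7 cell at 150 UMIs of Fabp7.

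Cartilage RNA was present in the same population and was more even across ages. Of 22 cartilage genes, 0 of 5 measured were called from P0 to P7 (median log2 change 0.35). From P0 to P3, 2 of 10 were higher (background 4.35%), and from P3 to P7, 3 of 8 were lower (background 6.22%). Acan (chr7:79053483-79115099, plus strand) stood at 196, 200 and 202 CPM (27, 170 and 40 UMIs). Matn4 (chr2:164389393-164405160, minus strand), a matrilin of the cartilage matrix, stood at 420, 472 and 540 CPM. Sox9 stood at 79.7, 116 and 141 CPM and Col2a1 at 94.2, 131 and 106 CPM, with overlapping intervals among the 3 ages.

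The genes that differed were highest at P3. Col9a2, a chain of the cartilage collagen IX, stood at 109, 372 and 156 CPM, so P3 was 3.42 times P0 (2.04 to 6.18) and P7 was 0.42 times P3 (0.28 to 0.61). Col9a3, its partner chain, stood at 7.25, 67.1 and 15.1 CPM, with 1 UMI at P0. Its P3 to P0 ratio was 9.25 with a counting interval of 1.60 to 372. Lect1, chondromodulin, stood at 94.2, 140 and 25.2 CPM, and P7 was 0.18 times P3 (0.06 to 0.43). Col10a1, the collagen of hypertrophic cartilage, and Matn1 had no UMI in the members of these 3 libraries.

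Osteoblast and cartilage genes met in single cells. At least 1 UMI of Acan, Col2a1 or Sox9 was found in 26, 118 and 35 members, and 21, 100 and 31 members had both one of these and one of Runx2, Sp7 or Alpl. Neither set was seen in 10, 24 and 3 members. These counts were not thinned, and deeper cells show more genes. Thinned shares for Acan were 31.2%, 31.1% and 31.7% of members, beside unthinned shares of 41.3%, 47.8% and 44.9%, and 0%, 1.11% and 0% of thinned fibroblasts.

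Periosteum and tendon genes showed few differences. Of 18 genes, 1 of 6 measured was called higher from P0 to P7 (background 8.82%) and 0 lower. That gene was Ctsk, a collagen-degrading cathepsin known from osteoclasts and periosteal cells, at 65.2, 196 and 242 CPM, 3.72-fold (1.80 to 8.61). Postn, periostin, stood at 551, 401 and 550 CPM and Prrx1, a limb and skull mesenchyme factor, at 254, 371 and 283 CPM, neither called between any pair of ages. Tnc, tenascin C, was low at P3, at 333, 72.9 and 227 CPM, with ratios of 0.22 for P3 over P0 (0.15 to 0.33) and 3.11 for P7 over P3 (2.07 to 4.65). The tendon gene Tnmd had 0, 5 and 0 UMIs in members.

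Among the small leucine-rich proteoglycans, the family of the gate genes Aspn and Omd, 8 were measured from P0 to P7. Of these, 1 was called higher (background 8.82%) and 1 lower (9.66%). Epyc (epiphycan, a proteoglycan of cartilage) stood at 79.7, 253 and 232 CPM, 2.91-fold (1.49 to 6.24). Dcn (decorin, which binds collagen fibrils) stood at 1130, 835 and 565 CPM and was lower in each later library, with a P7 to P0 ratio of 0.50 (0.39 to 0.64). Where members needed a margin of 3 UMIs the log2 change of Dcn was -0.29 in place of -0.99. Lum, a neighbour of Dcn on chromosome 10, did not follow it: lumican stood at 1891, 1180 and 1999 CPM, lowest at P3. Bgn, biglycan, stood at 732, 1143 and 899 CPM, and Ogn, next to Omd, at 239, 281 and 197 CPM, called between no pair of ages.

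The fibrillar and associated collagens were higher at P7 in part. Of 22 chains, which include the 3 gate collagens, 4 of 13 measured were called higher from P0 to P7 (background 8.82%) and 0 lower, and from P3 to P7 7 of 18 were higher (background 8.69%). Col11a1 (chr3:114030540-114220718, plus strand), a minor fibrillar chain of cartilage and forming bone that marks these cells and took no part in the gate, stood at 442 CPM at P0 (338 to 568), 679 at P3 (624 to 736) and 803 at P7 (683 to 938). P0 lay below both later ages, with ratios of 1.54 for P3 over P0 (1.18 to 2.03) and 1.82 for P7 over P0 (1.34 to 2.48). Col12a1, which coats fibrils, stood at 442, 346 and 853 CPM, 1.93-fold at P7 over P0 (1.43 to 2.63). Col8a1 at 138, 218 and 308 CPM and Col16a1 at 123, 180 and 247 CPM were the other called chains.

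Few enzymes and chaperones of collagen making were called from P0 to P7. Of 31 listed collagen maturation genes, 1 of 12 measured was called higher from P0 to P7 (background 8.82%) and 0 lower. That gene was Adamts2, the procollagen peptidase, at 29.0, 52.9 and 111 CPM. From P0 to P3, 1 of 18 was higher (4.35%) and 1 lower (5.9%), and from P3 to P7 3 of 18 were higher (8.69%) and 0 lower. Serpinh1, the collagen chaperone, stood at 2442, 1553 and 1701 CPM, and P3 was 0.64 times P0 (0.56 to 0.72). Of 27 secretory pathway genes, 0 of 23 measured were higher and 2 were lower from P0 to P7 (background 9.66%). These were Hspa5, the chief chaperone of the endoplasmic reticulum, at 1130, 725 and 727 CPM, and Surf4, a cargo receptor, at 217, 120 and 101 CPM. From P0 to P3, 0 of 25 were higher and 5 were lower (5.9%). From P3 to P7, 1 of 25 was higher (8.69%) and 0 lower. The secretory list's median log2 change from P0 to P7, -0.12, turned to 0.064 with median-of-ratios scaling and 0.11 with thinned cells. Hspa5 turned to 0.040 with thinned cells. No gene of the elastic fibre and glycoprotein list was called among 13 measured from P0 to P7.

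Matrix-degrading enzymes and their inhibitors were also higher at P7. Of 19 genes, 5 of 7 measured were called higher from P0 to P7 (background 8.82%) and 0 lower, with a median log2 change of 0.82. Mmp14, the membrane protease that activates Mmp2, stood at 478, 379 and 853 CPM, with P0 and P3 close and P7 1.78-fold over P0 (1.33 to 2.41). Mmp2 stood at 304, 320 and 469 CPM, 1.54-fold over P0 (1.06 to 2.28). Timp3, an inhibitor bound to the matrix, stood at 159, 102 and 293 CPM, 1.84-fold (1.11 to 3.15). Htra1, a serine protease, stood at 123, 104 and 237 CPM, 1.93-fold (1.09 to 3.58). Adamts5, an aggrecanase, rested on 5, 15 and 20 UMIs, and 1 cell held 60.0% of those at P0. With thinned cells 0 of 4 measured genes of this list were called, and with at least 20 collagen UMIs 2 of 6. Mgp, an inhibitor of mineral deposition, stood at 2319, 2021 and 2524 CPM and was not called.

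**Figure D4:**
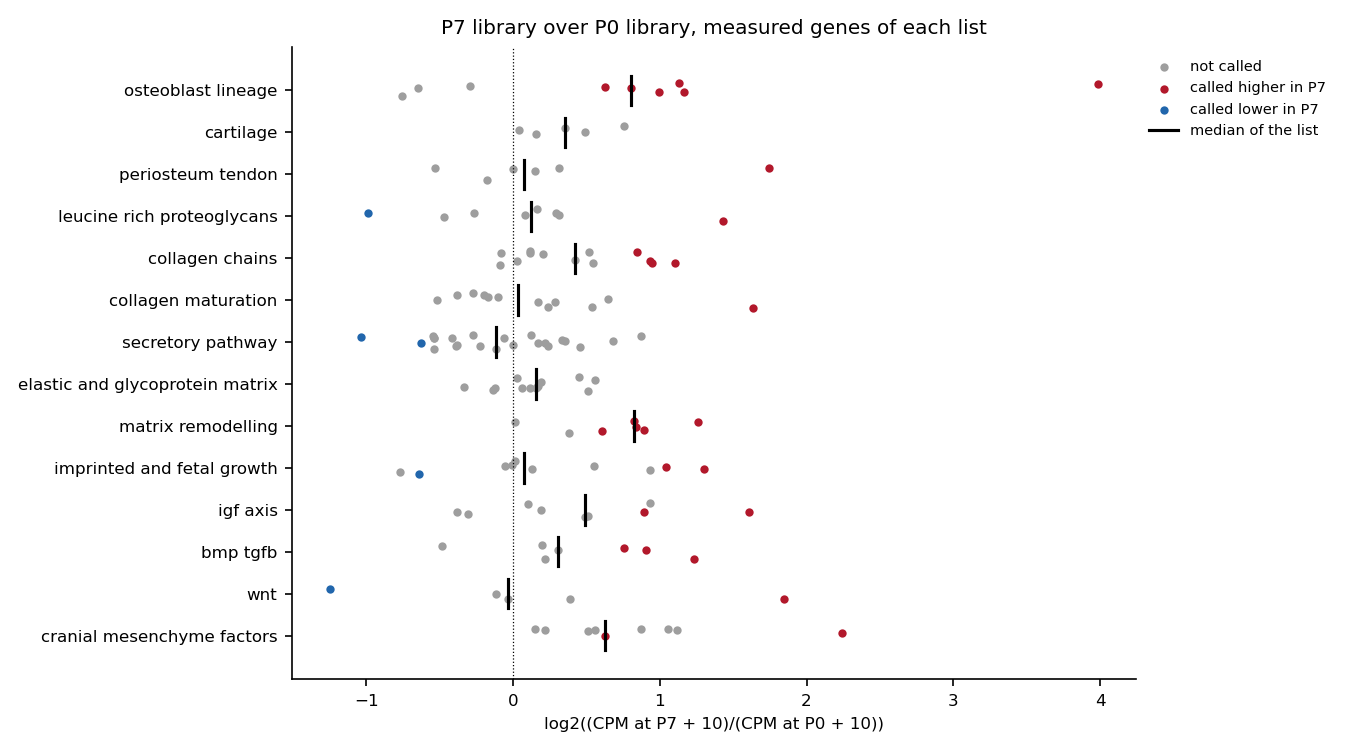
Each point is a measured gene of a list, placed by log2((CPM at P7 + 10)/(CPM at P0 + 10)) of members, coloured by its call, and the black bar is the list's median. Among the lists drawn, which leave out the FGF and cell division lists, the osteoblast list (0.80) and the matrix remodelling list (0.82) have the highest medians and the secretory pathway list (-0.12) the lowest.

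H19 marked the cells at every age compared and was absent from the few P21 members. It stood at 3196 CPM at P0 (2904 to 3508, 441 UMIs), 4725 CPM at P3 (4580 to 4874, 4017 UMIs) and 3074 CPM at P7 (2835 to 3328, 609 UMIs), and had 0 of 3778 UMIs in the 2 P21 cells, which allows up to 3 counts in that total. P0 and P7 lay close, with a ratio of 0.96 (0.85 to 1.09). P3 was 1.48 times P0 (1.34 to 1.64) and P7 0.65 times P3 (0.60 to 0.71), and the last was called lower. Thinned shares of members with H19 were 90.6%, 95.7% and 80.5%, beside 93.5%, 96.6% and 87.8% unthinned. In thinned cells with 10 or more Omp UMIs, which should lack H19, the shares were 1.49%, 0.551% and 0.286%, at median depths before thinning of 4944, 7173 and 5545 UMIs.

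Igf2, the fetal growth factor that shares the H19 region, took another course. It stood at 906 CPM at P0 (754 to 1079), 1043 at P3 (976 to 1114) and 1333 at P7 (1177 to 1503), and its P7 to P0 ratio of 1.47 (1.18 to 1.84) was just under the fold of a call. Of 23 imprinted and fetal growth genes, 2 of 10 measured were called higher from P0 to P7 (background 8.82%) and 1 lower (9.66%). Meg3, a maternally expressed noncoding RNA, stood at 428, 1086 and 1070 CPM, 2.50-fold (1.87 to 3.40), and P7 was 0.99 times P3 (0.85 to 1.15). Peg3 stood at 188, 249 and 399 CPM, 2.12-fold (1.34 to 3.44). Cdkn1c, an inhibitor of cell division, stood at 1232, 1196 and 787 CPM and was 0.64 times P0 at P7 (0.51 to 0.80).

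Most insulin-like growth factor genes were not called from P0 to P7. Of 12 genes, 2 of 9 measured were called higher (background 8.82%), Igf1 and Htra1. Igf1, the postnatal growth factor, stood at 116, 139 and 374 CPM (16, 118 and 74 UMIs), with P7 3.22-fold over P0 (1.86 to 5.93) and 2.69-fold over P3 (1.98 to 3.63), and thinned cells gave a log2 change of 0.60 from P0. Thinned shares were 21.9%, 18.3% and 41.5% of members. Igfbp3, which carries IGFs, was highest at P3, at 174, 580 and 131 CPM, 3.33 times P0 (2.21 to 5.25), and P7 was 0.23 times P3 (0.15 to 0.34). The fibroblasts had the same order for Igfbp3, at 280, 675 and 304 CPM.

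**Figure D5:**
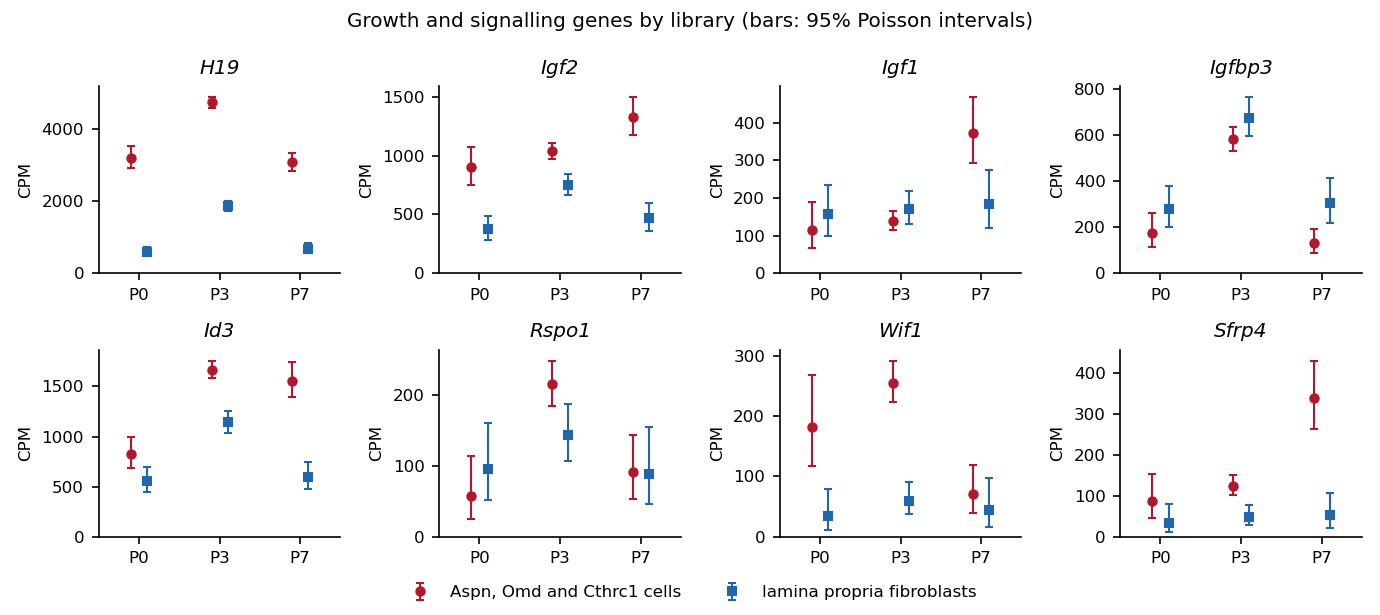
Points are CPM summed over members (red circles) or fibroblasts (blue squares) in the P0, P3 and P7 libraries, with Poisson 95% bars, for 8 growth and signalling genes. H19, Igfbp3 and Rspo1 are highest at P3, Igf1 and Sfrp4 at P7, and H19 in members stands above fibroblasts at every age.

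Several BMP and TGF-beta genes, which direct bone formation, were highest at P3. Of 33 genes, 7 of 14 measured were called higher from P0 to P3 (background 4.35%) and 2 lower (5.9%). From P3 to P7, 1 of 12 was higher (background 8.69%) and 4 were lower (6.22%). From P0 to P7, 3 of 7 were higher (background 8.82%). The ligand Bmp7 stood at 29.0, 104 and 35.3 CPM, and the antagonists Nog (noggin) at 14.5, 58.8 and 35.3 CPM and Bmper at 36.2, 114 and 50.5 CPM; all 3 rested on 2 to 5 UMIs at P0. The Id genes are direct targets of BMP signalling. Id1 stood at 87.0, 236 and 101 CPM, Id2 at 145, 487 and 353 CPM, and Id3 at 826, 1669 and 1560 CPM. Id2 and Id3 were called higher at both P3 and P7 than at P0, with Id3 at 2.02-fold (1.67 to 2.47) and 1.89-fold (1.52 to 2.36), whereas Id1 was 0.43 times P3 at P7 (0.26 to 0.68). Id3 lost its P7 call with thinned cells, where its log2 change was -0.18.

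WNT genes were called in both directions between ages. Of 5 measured, 1 was higher (background 8.82%) and 1 lower (9.66%) from P0 to P7. Of 11, 2 were higher (4.35%) and 1 lower (5.9%) from P0 to P3. From P3 to P7, 1 of 11 was higher (8.69%) and 3 were lower (6.22%). Rspo1, which strengthens WNT signals, stood at 58.0, 215 and 90.9 CPM, 3.71-fold at P3 over P0 (1.85 to 8.73), and the ligand Wnt5a at 29.0, 78.8 and 40.4 CPM. Sfrp4, an inhibitor known from bone, stood at 87.0, 125 and 338 CPM, 3.89-fold at P7 over P0 (2.09 to 7.90), although 1 cell held 58.3% of the 12 UMIs at P0. Wif1, an inhibitor that binds the ligands, stood at 181, 255 and 70.7 CPM, 0.39 times P0 at P7 (0.19 to 0.78).

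The FGF receptors Fgfr1 and Fgfr2, of which the second is required for skull bone growth, were called higher at P7. They were the only measured genes of 14 in the FGF list from P0 to P7. Fgfr1 stood at 94.2, 178 and 252 CPM, 2.68-fold (1.43 to 5.38), and Fgfr2 at 58.0, 108 and 156 CPM, 2.70-fold (1.21 to 6.80). Of 38 transcription factors of cranial mesenchyme, 2 of 9 measured were called higher from P0 to P7 (background 8.82%) and 0 lower. That count ranged from 1 of 9 without cells whose barcode is in another library to 5 of 9 with median-of-ratios scaling, and it was 5 of 7 with at least 20 collagen UMIs. Alx1, a factor of the frontonasal skeleton, stood at 268, 233 and 419 CPM, 1.56-fold (1.05 to 2.37). Tfap2b rested on 2 UMIs at P0 and stood at 14.5, 51.8 and 106 CPM, a ratio of 7.31 with an interval of 1.79 to 64.4. Dlx5, which acts upstream of Sp7, stood at 181, 166 and 212 CPM and was not called between ages. Of 13 hedgehog genes, 0 of 3 measured were called from P0 to P7.

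Cell division genes were lower at P7 than at P3. From P3 to P7, 5 of 8 measured S-phase genes and 4 of 6 measured genes of the G2 and M phases were called lower (background 6.22%) and none higher. The 20 G2 and M genes summed to 985 CPM at P0, 1055 at P3 and 399 at P7, and the S-phase genes to 732, 1023 and 515 CPM. Fibroblasts were likewise lowest at P7, at 1432, 1288 and 489 CPM for G2 and M and at 961, 1014 and 578 CPM for S phase. Members with 5 or more UMIs of the G2 and M genes, S-phase genes left out, were 5 of 46 at P0 (10.9%, 3.62 to 23.6), 24 of 178 at P3 (13.5%, 8.83 to 19.4) and 3 of 49 at P7 (6.12%, 1.28 to 16.9), and these intervals overlapped. Birc5, a mitosis gene at 254, 94.1 and 40.4 CPM, had 62.9% of its P0 UMIs in 1 cell. Genes induced by tissue dissociation, such as Jun and Jund, summed to 1014, 618 and 1030 CPM.

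The largest differences from P0 to P7 by size mixed skeletal genes with RNA of single cells. Fabp7, a glial gene, stood at 7.25, 29.4 and 777 CPM, and 1 P7 cell held 97.4% of the UMIs; without the cells rich in glial RNA, 0, 1 and 2 in number, its log2 change was -0.79. Ifi27l2a had all of its 31 P7 UMIs in 1 cell. Gpx3, a secreted peroxidase, was broader, with 101, 100 and 596 CPM in 12, 38 and 25 cells and a ratio of 5.87 (3.36 to 11.1). Lrp1, a lipoprotein receptor, stood at 72.5, 114 and 323 CPM, 4.46-fold (2.27 to 9.74). S100b, counted among the glial markers, stood at 232, 429 and 485 CPM in 19, 119 and 32 members, with no more than 12.5% of UMIs in 1 cell, so it was carried by many members at each age. Other genes among the 12 largest included Pdzrn4, Jun, Ogt and Gm8730.

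Several of the genes most reduced at P7 against P0 were lower there in unrelated cells too. Sec61g, a subunit of the translocon, stood at 377, 174 and 40.4 CPM in members, at 286, 173 and 66.7 CPM in fibroblasts and at 145, 65.2 and 31.7 CPM in cells with 10 or more Omp UMIs. Gm10076, a predicted gene, stood at 935, 579 and 252 CPM in members and at 630, 390 and 165 CPM in those neurons, and Erh at 377, 227 and 106 CPM beside 275, 220 and 141 CPM. On the high side Gm8730, likewise a predicted gene, stood at 333, 1155 and 1868 CPM in members and at 18.7, 117 and 230 CPM in the neurons, and Ogt at 50.7, 168 and 247 CPM beside 93.6, 162 and 226 CPM. The part of the library in these 5 genes was not tested. Gng12 stood at 181, 96.5 and 40.4 CPM in members and, in the same order, at 245, 119 and 96.3 CPM in fibroblasts. Lgals3, a galectin, stood at 159, 57.6 and 20.2 CPM in members beside 20.5, 16.3 and 37.0 CPM in fibroblasts.

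Set against the fibroblasts of the same libraries, the members are described with no test, because the gate made the contrast. Genes called higher in members were 12.3% of those measured at P0, 8.41% at P3 and 16.8% at P7, and genes called lower 11.1%, 13.2% and 10.3%. In the osteoblast list 5 of 6, 4 of 5 and 8 of 9 measured genes were higher in members, and in the cartilage list 2 of 2, 8 of 8 and 5 of 6. Alpl had 0, 12 and 0 UMIs in fibroblasts, which put members at least 16.7-fold higher at P0 and 23.9-fold at P7. Acan had 0, 1 and 0 UMIs there, which put members at least 9.57-fold higher at P0 and 9.09-fold at P7. The osteoblast list's exception was Cdh11, at 729, 567 and 585 CPM in fibroblasts against 210, 295 and 374 CPM in members. The cartilage list's exception was Col10a1 at P7, with 148 UMIs in fibroblasts and none in members.

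Beyond those lists, the genes with the widest member excess in all 3 libraries included Rbp4, the retinol carrier, at 457, 372 and 353 CPM against 13.6, 40.7 and 0 CPM. Hpgd, which degrades prostaglandins, stood at 609, 315 and 1045 CPM against 81.8, 54.2 and 37.0 CPM, and the prostaglandin receptor Ptgfr at 304, 215 and 389 CPM against 40.9, 40.7 and 37.0 CPM. Hpgd also differed by age within members, with P7 3.31 times P3 (2.75 to 3.99). Dapk2, Kazald1, Tnc, Dlx5, S100b, Matn4 and Col12a1 completed the list. H19 was 5.39-fold above fibroblasts at P0 (4.27 to 6.86), 2.55-fold at P3 (2.35 to 2.77) and 4.56-fold at P7 (3.65 to 5.75), since fibroblasts had 593, 1851 and 674 CPM.

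On the other side stood genes lower in members than in fibroblasts in all 3 libraries. Pla2g7, a phospholipase, had 0, 3.53 and 0 CPM against 211, 211 and 281 CPM. Col14a1, a fibril-associated collagen, had 0, 55.3 and 30.3 CPM against 354, 553 and 718 CPM, and the WNT inhibitor Sfrp1 had 79.7, 94.1 and 40.4 CPM against 913, 778 and 1511 CPM. Tfap2b was lower in members too, at 14.5, 51.8 and 106 CPM against 532, 298 and 837 CPM. Other such genes included Adra2c, Fam213a, Tmem37, Nampt, Ntrk2, 1810011O10Rik and S100a6, and the last of these was still at 587, 426 and 434 CPM in members.

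Members also varied by which gate gene led. In the 26, 66 and 18 Aspn-led cells the water channel Aqp1 stood at 419, 378 and 701 CPM, and in the 14, 87 and 19 Cthrc1-led cells at 163, 216 and 122 CPM, ratios of 2.57 (1.10 to 6.92), 1.75 (1.32 to 2.32) and 5.73 (2.97 to 11.9). Tagln, a contractile gene, had 43 UMIs in Aspn-led cells at P0 and 0 in Cthrc1-led cells, and stood at 298 against 134 CPM at P3 and 375 against 235 CPM at P7, where the interval of the ratio (0.86 to 2.98) included 1. Ostn, a secreted peptide of bone and muscle, stood at 195 against 117, 125 against 75.5 and 391 against 51.0 CPM, and its P0 ratio had an interval of 0.57 to 5.95. Klf4, a transcription factor, was lower in Aspn-led cells at P3, at 69.3 against 147 CPM (ratio 0.47, 0.27 to 0.79), but it rested on 1 against 5 UMIs at P0 and 2 against 6 at P7, with intervals that included 1. These genes were picked for keeping 1 direction in the 3 libraries and carry no test. Leiden clustering of the 275 members gave 5 clusters of 26 to 84 cells, and 4 or 7 at a lower or higher resolution, so the number of groups among the cells depended on the setting. The shares that the libraries took of these clusters were uneven, as given with the osteoblast list.

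The 2 members of the P21 library had 1679 and 2099 UMIs. They held 27 UMIs of Bglap, 9 of Bglap2, 39 of Mgp, 14 of Gpx3 and 9 of Hpgd, and none of Runx2, Sp7, Acan, H19 or Igf1. With 2 cells these are single observations.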

How the data were processed

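Each of the 4 libraries was deposited as 1 table of whole-number UMI counts, 49671 genes by cell. Per the submitters' processing notes the authors used Cell Ranger 2.1.1, Seurat and the mm10 genome; no source used here gives the filters behind the deposited counts. The values were used as raw counts. Columns of other samples numbered 0.

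Members and gene lists were chosen with earlier results of these data known. Cells with at least 500 genes and at most 10% mitochondrial counts were kept (2691, 3220, 1785 and 1414 of 2703, 3220, 1787 and 1416). No doublet caller was run; leaving out the 5% of cells with most UMIs was an alternative. Counts of members were summed per library and divided by their total (CPM). Changes are log2((CPM + 10)/(CPM + 10)). Levels carry exact Poisson, ratios exact conditional binomial and shares Clopper-Pearson 95% intervals. P0, P3 and P7 were compared; no p-value was computed, since each age has 1 library. Shares of cells with a UMI were also given after thinning each cell to 2000 UMIs, leaving out shallower cells. Clustering used 1000 variable genes, 15 principal components, 10 neighbours and resolution 0.5.

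Named genes are, leaving out gate, mitochondrial, ribosomal, haemoglobin, Xist and Y genes, the 12 genes most above and the 12 most below P0 at P7, 5 more in each direction that moved the same way at both steps, the 12 in each direction with the largest smallest difference from fibroblasts, the gate and marker genes, and from each list the called members and up to 4 by level. The genes of the comparison by leading gate gene, single genes of a list that were neither called nor among those 4, and the P21 genes were chosen after their values were seen. Some genes that this rule names are not reported here. The ratio intervals and calls were tested on simulated sums drawn with counting error alone. These sums had no spread between cells, so they do not show how calls behave where 1 cell holds most UMIs of a gene. Alternatives changed the collagen limit, the margin, the depth, the scaling, the pseudocount and the filter. Those without shared barcodes, without glial RNA and without cells rich in Bglap, Ibsp and Spp1 were added after seeing the data. Python 3.11.15, numpy 2.4.6, scipy 1.17.1, pandas 2.3.3, scanpy 1.11.5, leidenalg 0.10.2 and matplotlib 3.10.9 were used. Genes carry their symbols in the tables, with coordinates from GENCODE vM21 (GRCm38). Upstream windows and miRNAs come from RefSeq GRCm38.p6.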

Additional observations from a re-analysis of the deposited data

How the results depend on the processing

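No paired analysis was possible because each age has 1 library, and for the same reason no replicate could be left out. With at least 20 collagen UMIs the share of members was 1.15% at P0 and 4.32% at P3, and with cells thinned to 2000 UMIs it was 1.12% and 4.29%. That thinned setting left out shallower cells and applied the gate again to the thinned counts. Its members numbered 25, 125 and 42 at P0, P3 and P7. With fewer UMIs and other members, the calls were 58 higher and 69 lower for P7 over P0. They were 92 and 83 for P3 over P0, and 87 and 129 for P7 over P3. The parts of depth and of membership in these values were not tested. Median-of-ratios scaling gave 273 higher and 81 lower for P7 over P0 and 275 and 119 for P3 over P0; all 158 genes called higher for P7 over P0 kept that call, and the 81 lower were among the 173. The median log2 change from P0 to P7 of the secretory pathway list turned from -0.12 to 0.11 with thinned cells and 0.064 with median-of-ratios scaling, and that of the lamina propria fibroblast list from 0.31 to -0.30 with thinned cells. Fabp7 turned to -0.99 with at least 20 collagen UMIs and -0.79 without cells of glial RNA, Hspa5 to 0.040 and Id3 to -0.18 with thinned cells, and Spp1 to -2.52 without cells rich in Bglap, Ibsp and Spp1; beyond what these settings remove, the cause was not tested. Of 810 single-gene values under alternatives, 774 stayed within their counting interval, 31 moved outside it and 5 reversed. The total includes the setting without a CPM minimum, which does not enter the log2 change, so its values could not move. The count of 774 is therefore no measure of how robust the values are. The P21 members could not be compared at their depth.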
